A study of Drosophila melanogaster with 2 samples.

Results

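Peaks of Max-GFP that hold the Ohler 1 core promoter motif were described among the reproducible Max-GFP peaks of whole Drosophila melanogaster embryos. A peak was a member where its summit had an exact match of the 8-base Ohler 1 core, GGTCACAC, on either strand and wholly within 100 bp. Peaks with the E-box CACGTG or the DRE core TATCGATA within 100 bp of the summit were left out. Of 4712 reproducible peaks on the dm6 assembly, 196 had the Ohler 1 core. Of these, 24 also had an E-box and 23 a DRE, with 4 peaks in both counts, which left 153 members, called Ohler 1 peaks here. A single match was found in 148 of them and 2 matches in 5. The rule used sequence and position only, and no score.

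The embryos, of both sexes and aged 0 to 24 h, were of a stable transgenic line whose Max protein carries GFP at its C terminus, and the fusion was precipitated with an antibody against GFP. The data are 1 group of 2 biological replicates, numbered 2 and 3, with chromatin sonicated to 200 to 800 bp and no second genotype, treatment or stage. Because embryos were whole, a peak list sums over all tissues and stages of that day, and binding by the untagged protein was not measured. The files analysed here are the authors' peak lists. They cover each replicate, the pooled replicates and the pooled peaks kept by an irreproducible discovery rate (IDR), which estimates the share of peaks not reproduced between replicates. Each replicate list and the pooled list held exactly 30000 peaks with no read counts, so depth is unknown. Peaks were ranked by the authors' score, an enrichment over a control alignment that can be compared within a list only.

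Max belongs to the basic helix-loop-helix leucine zipper family, dimerizes with Myc and other partners, and binds the E-box. Ohler 1, also called Motif 1, is a core promoter element of Drosophila, found mostly at promoters without a TATA box and at many genes that most cells use. It is bound by M1BP, a zinc-finger protein associated with paused RNA polymerase II. The DRE is bound by DREF, another factor of broadly used promoters. M1BP and DREF were not measured in these data.

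Sites of high-scoring Ohler 1 peaks are shown, with those of some ribosomal, splicing and translation genes and of Taf1, Rpp21 and Cdc45. They are shown because the bases around the core were not part of the rule. Each is read in the direction of the motif on dm6, with 11 bases to each side and the core in capitals.
RpLP0 (chr3L:22076054-22076083, plus strand): gccatcgaagcGGTCACACtgggtgccgcc
Sf3b1 (chr2L:568311-568340, plus strand): gatatgtatttGGTCACACttagaccaggc
CG42374, Max and Mettl5 (chr3L:19264389-19264418, minus strand): gcgagcagtgtGGTCACACtggcgagtact
CG9630 (chr3R:8269871-8269900, minus strand): gggtgtgaaatGGTCACACtatcgcgcaca
CG4364 (chr2L:9711253-9711282, minus strand): aatttggaactGGTCACACttcctttccac
Csk promoter (chr3R:11650696-11650725, minus strand): cattgccgactGGTCACACtgcagtccagc
Adsl (chr3R:17021117-17021146, minus strand): tatcgcaaggcGGTCACACtgccccgccac
CG10068 (chr3R:7128239-7128268, plus strand): gctcaacaaacGGTCACACtgctgttataa
RpLP1 (chr2L:419923-419952, plus strand): gtcatcggcgcGGTCACACtgcatatcaac
RpL27A (chr2L:4458330-4458359, minus strand): cgccgccgggcGGTCACACtgctacaaccg
eIF5B (chr3L:3460555-3460584, minus strand): tccactcgcacGGTCACACtgcctgtccaa
Taf1 (chr3R:6646893-6646922, plus strand): tgtccatcgacGGTCACACttacgcgtgtg
Rpp21 and Cdc45 (chrX:1030743-1030772, plus strand): gctccagatacGGTCACACcgcgacgccca
The 3 highest-scoring peaks away from promoters had these sites, the slp2 matches in the same peak.
slp2, left match (chr2L:3832485-3832514, plus strand): taatctattttGGTCACACtgcgcgctaag
slp2, right match (chr2L:3832520-3832549, plus strand): agatccggcgcGGTCACACtgttcgcacag
Csk intron (chr3R:11649709-11649738, minus strand): aagcgcacagtGGTCACACgatacagtggc
Hgsnat intron (chrX:4919646-4919675, plus strand): caaggtacagtGGTCACACgctgaggttga

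The bases next to the core in Ohler 1 peaks were those of promoter copies of the motif in general. The base before the core was C or T in 92.4% of 158 distinct matches, against 90.8% of the 556 promoter matches with no reproducible peak. A T followed it in 75.9%, against 76.3%. A T and then A or G followed it in 65.8%, against 60.8%. All of these bases were present together in 60.1%, against 56.1%. Of the 2033 matches that lay over 100 bp from every protein-coding start, 58.4% had C or T before the core, 32.9% had T after it and 11.5% had the whole extended site. Within promoters the flanks did not separate copies with a Max-GFP peak from copies without one. Among promoter copies with no E-box or DRE, 40.4% of 468 extended sites and 40.1% of the 347 others had a reproducible summit within 500 bp (95% Wilson intervals 36.0 to 44.9 and 35.0 to 45.3).

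At promoters with the motif, Max-GFP summits did not sit on it but lay mostly upstream. Protein-coding starts within 500 bp of each other were merged into 14843 promoters, and 767 of these had Ohler 1, with no E-box or DRE, within 100 bp of a start. A reproducible summit lay within 500 bp of a start in 306 of the 767 (39.9%, 36.5 to 43.4), against 18.5% of all promoters. In these 306 the nearest summit was a median of 116 bp from the motif's centre (quartiles 60.8 and 181), and 79.7% had it upstream of the motif in the direction of the nearest gene. The summit lay within 100 bp of the motif in 125 of 306 (40.8%, 35.5 to 46.4), and at 124 of the 306 the nearest summit was an Ohler 1 peak. The other promoters had their summit farther off, so Ohler 1 peaks are the nearer part of a wider set.

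**Figure D1:**
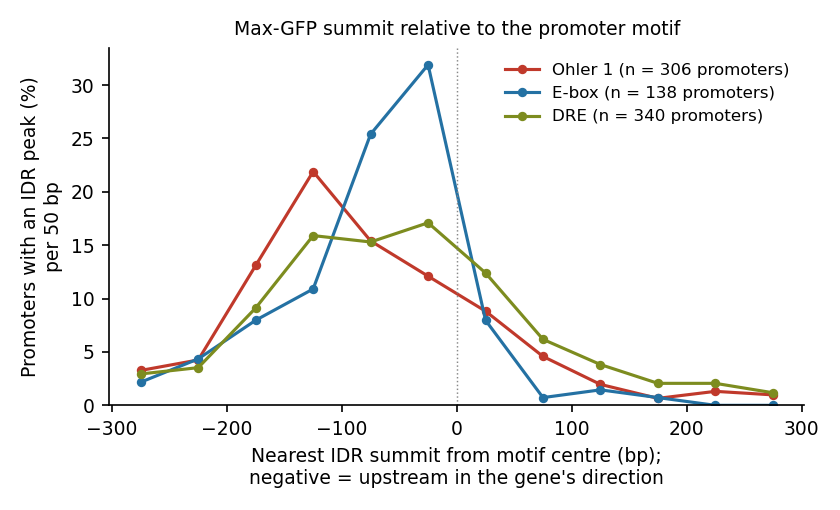
Distance in bp from the motif's centre to the nearest reproducible summit, as the percentage of promoters per 50 bp, for promoters with 1 of the 3 motifs and a reproducible peak. The most filled bin lies 150 to 100 bp upstream for Ohler 1, with 21.9% of 306 promoters, and 50 to 0 bp upstream for the E-box, with 31.9% of 138.

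The E-box and the DRE, treated in the same way, had summits nearer to them. The summit lay within 100 bp of the motif in 65.9% of the 138 E-box promoters with a peak (57.7 to 73.3) and in 50.9% of the 340 DRE promoters (45.6 to 56.2). The interval of the E-box lies above that of Ohler 1, while that of the DRE overlaps it. Median distances were 116 bp for Ohler 1, 65.0 bp for the E-box and 98.5 bp for the DRE. The nearest summit was upstream of the motif in 87.7% of the E-box promoters and 70.6% of the DRE promoters, against 79.7% for Ohler 1. An upstream summit was thus not particular to Ohler 1. The motifs also differ in where they lie. The median motif centre was 1.5 bp downstream of the start for Ohler 1, 25 bp downstream for the E-box and 26.0 bp upstream for the DRE. The nearest summit had its median 105 bp upstream of the start at Ohler 1 promoters, 47.5 bp at E-box promoters and 94.5 bp at DRE promoters.

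Seen from the summits, the motif formed a plateau. Over all 4712 reproducible peaks, Ohler 1 matches numbered 10.8 to 12.3 per 1000 peaks in each 50 bp step from 150 bp left to 150 bp right of the summit. At the outer ends, 450 to 500 bp away, they numbered 1.49 and 2.12. The E-box was at 16.6 and 20.4 in the central steps and at 9.76 and 8.91 in the steps from 100 to 150 bp. The DRE was at 19.5 and 17.6 in the centre and at 13.2 and 12.5 in those steps. The share of all reproducible peaks with Ohler 1 within 100 bp was 4.16% at the summit, 0.700% at a point 500 bp to the left and 0.615% at a point 500 bp to the right. For scale, 6.30% of all promoters held Ohler 1 within 100 bp of a start, 3.29% the E-box and 6.94% the DRE.

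**Figure D2:**
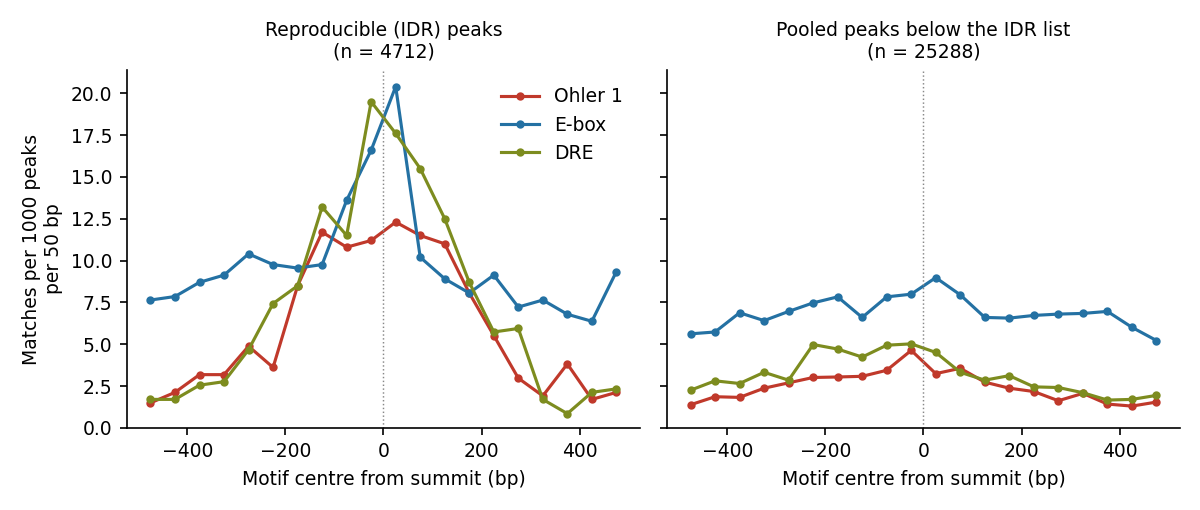
Matches per 1000 peaks in steps of 50 bp around the summit, for Ohler 1, the E-box and the DRE, in the 4712 reproducible peaks (left) and the 25288 pooled peaks that ranked below them (right). Ohler 1 is level from 150 bp left to 150 bp right of reproducible summits, while the E-box reaches 20.4 next to the summit, and next to the summit all 3 are lower in the right panel.

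The limit of 100 bp therefore cut through a continuous set. The members just inside it, with the motif's centre 96.5 bp from the summit, were puml and Opa1, with scores of 195.5 and 91.42. Just outside, at 97.5 bp, were tzn, CG12016, CG6654 and Rpn9, with 270.4, 170.2, 96.87 and 90.71. Among reproducible peaks with no E-box or DRE within 100 bp, 80 had the nearest Ohler 1 core within 50 bp, 81 at 50 to 100 bp, 91 at 100 to 150 bp and 62 at 150 to 200 bp. Their median scores were 115, 138, 157 and 143 in that order. The summit was within 1 bp of the interval's midpoint in 134 of the 153 Ohler 1 peaks (87.6%), against 76.3% of all reproducible peaks, and the median width was 436 bp in both. Most summits are thus interval centres, which limits how finely a distance can be read.

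Ohler 1 peaks lay almost wholly at promoters. A summit within 500 bp of a protein-coding start was found for 146 of 153 (95.4%, 95% Wilson interval 90.9 to 97.8), against 60.6% of all reproducible peaks. The share was 96.9% of the 224 peaks with the DRE alone and 74.9% of the 219 with the E-box alone. Of the 3028 matches of the motif on the 6 arms, 995 (32.9%) lay within 100 bp of a start. Summits at promoters were a median of 44.5 bp from the nearest start (quartiles 23.0 and 73.5), against 104 bp over all promoter peaks, and the rule ties the summit to the motif. They lay upstream of the start in 74.0%, against 77.4%. The summit was between genes in 56.9% of Ohler 1 peaks, in a 5′ UTR in 30.7% and in an intron in 9.80%, against 42.8%, 13.6% and 39.1% of all peaks. Starts on both strands lay within 500 bp of the summit in 52.1% of promoter members (44.0 to 60.0), against 41.3% of all promoter peaks (39.5 to 43.1). DRE peaks had 55.8% and E-box peaks 37.8%. No member lay on the small arm 4, where a count of 0 of 153 allows a share of up to 2.45%, and 21 lay on X.

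The rule takes peaks by the distance of summit and motif, and summits lay mostly upstream of starts, so the motif's place among members is in part set by the rule and is given as a description. At promoter members 108 of 150 motifs read towards the gene of the nearest start (72%, 64.3 to 78.6), against 400 of 487 at promoters with the motif, no E-box or DRE and no reproducible peak (82.1%, 78.5 to 85.3), intervals that just meet. Limited to motifs within 100 bp of a start, as those 487 are, members had 73.0% (65.0 to 79.7). With the centre 100 to 50 bp before the start, 41.2% of 17 member motifs read towards the gene, against 36.8% of 57. In the 50 bp before the start it was 60.0% of 55, against 75.5% of 159 (46.8 to 71.9 and 68.2 to 81.5), and in the first 50 bp after it 91.9% of 62, against 96.6% of 266. Of these 3 steps, both sets had the highest share in the one after the start. Member motifs that read towards the gene had a median position 1.5 bp downstream of the start, and those that read away 35.5 bp upstream. Where starts on both strands lay within 500 bp of the motif, as for 51.3% of member motifs and 33.3% of the 556 promoter motifs with no reproducible peak, a motif that reads away from the nearest start can read towards another. Of the 42 member motifs that read away from the nearest start, 23 had a start on the other strand within 500 bp, against 29 of 98.

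**Figure D3:**
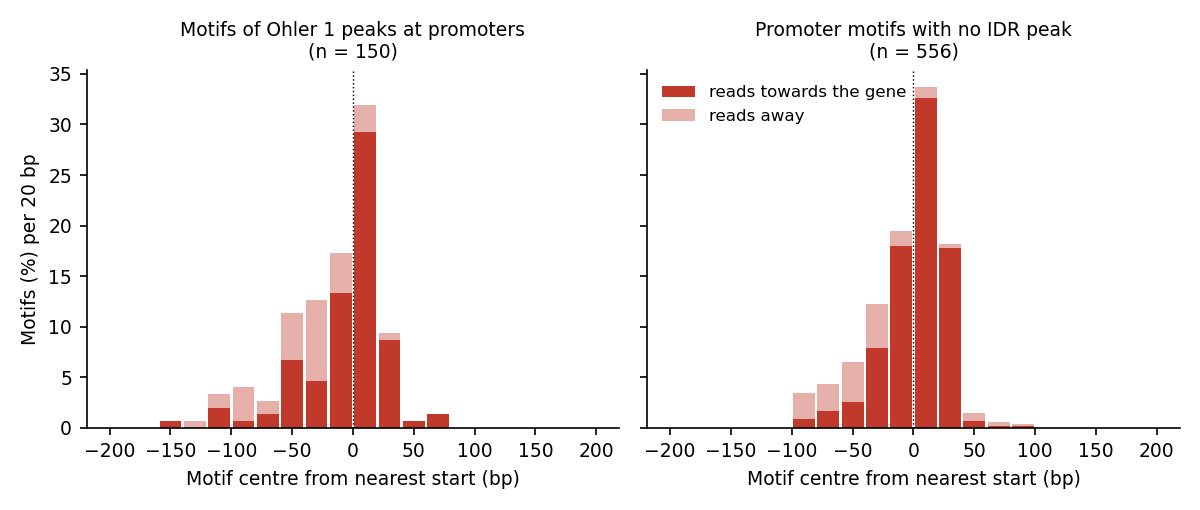
Position in bp of the Ohler 1 motif's centre from the nearest protein-coding start, as the percentage of motifs per 20 bp, for motifs of Ohler 1 peaks at promoters (left, n = 150) and promoter motifs with no reproducible peak (right, n = 556). Dark bars read towards the gene (72% left, 82.4% right) and pale bars read away, mostly upstream of the start.

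Promoters whose motif reads away had a peak about as often as those whose motif reads towards the gene. Among promoter motifs with no E-box or DRE, 43.5% of those that read away had a reproducible summit (35.9 to 51.4), as had 39.5% of those that read towards the gene (35.8 to 43.3). Over all 328 motifs of such promoters with a reproducible peak, 79.6% read towards the gene (74.9 to 83.6), which overlaps the interval of those without one. In each of these sets, 54.6% of motifs had the centre in the first 50 bp after the start, against 41.3% of member motifs.

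Scores of Ohler 1 peaks were lower than those of other reproducible peaks. They ran from 87.7 to 389 with a median of 119, against a median of 136 over the whole list. The median percentile in the list was 37.7 (quartiles 20.4 and 62.9), against 50 over the whole list. At promoters alone it was 37.6, against 53.7 for all promoter peaks. E-box peaks had a median percentile of 63.9 and DRE peaks 49.1. Among the highest-scoring 10% of the list were 4 of 153 Ohler 1 peaks (2.61%, 1.02 to 6.53), 16.4% of E-box peaks and 8.04% of DRE peaks.

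**Figure D4:**
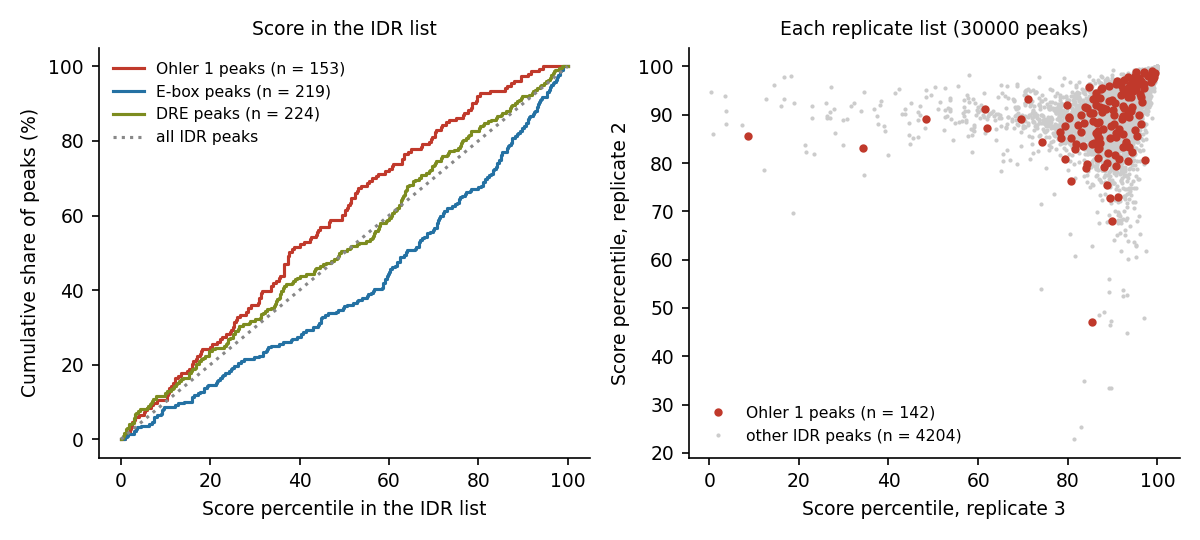
Left, cumulative percentage of Ohler 1, E-box and DRE peaks by percentile of score in the reproducible list, where the dotted diagonal stands for all 4712 peaks. Right, score percentile in replicate 2 against replicate 3 for 142 Ohler 1 peaks and 4204 other reproducible peaks with a summit within 100 bp in both lists. The Ohler 1 curve lies left of the diagonal over most of its course, with a median at 37.7, and most points of both groups lie above percentile 80 in both replicates.

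A smaller share of Ohler 1 peaks than of all peaks stood high in both replicates. With the top N of a replicate taken as its 4712 highest-scoring peaks, 105 of 153 Ohler 1 peaks overlapped a top N peak of both replicates (68.6%, 60.9 to 75.4), against 76.3% of all reproducible peaks. In replicate 2 alone it was 81.7%, against 89.6%, and in replicate 3 alone 84.3%, against 85.7%. Among members in the higher-scoring 50% of the reproducible list, 98.4% of 61 were in the top N of both, against 99.0% of all such peaks. Every member overlapped some peak of replicate 2, and all but CG14252 some peak of replicate 3. Of the members, 142 had a summit of each replicate within 100 bp. Their Spearman correlation of scores between replicates was 0.49, against 0.66 over all 4346 such peaks, 0.80 for E-box peaks and 0.67 for DRE peaks. These are descriptions over peaks that share 2 libraries, and Ohler 1 peaks span the narrower range of scores. The nearest summit can also be a weak one where the interval overlaps a top N peak, as for GC1 and indra below. An interval that overlaps a higher-scoring neighbour can borrow its replicate peak, which concerns 10 members, and with summits matched within 100 bp in place of overlap 59.5% were in both, against 67.3%.

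The highest-scoring promoter member was shared by CG42374, Max and Mettl5, with a score of 330.5 and rank 388 of 4712. The nearest replicate summit ranked 444 in replicate 2 and 348 in replicate 3. Its summit, at 3L position 19264324, is 80 bp from the CG42374 start, and the motif's centre is 0.5 bp from that start and reads away from it. No start of Max itself has the motif within 100 bp. CG10068 followed with 317.7 and replicate ranks of 677 and 261 in replicates 2 and 3. Its motif lay 226 bp upstream of the start and read away from it. Both peaks stood high in both replicates, but neither motif read towards the gene of the nearest start. That of CG10068 also lay outside the 100 bp around a start that held 91.3% of member motifs.

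RpLP0, a protein of the ribosomal stalk, had a score of 297.3 and ranks of 798 in replicate 2 and 301 in replicate 3. Its motif's centre was 0.5 bp from the summit, the closest match among the named peaks, and it read towards the gene from 23.5 bp upstream of the start. Sf3b1, a core subunit of the splicing factor SF3b, shares its promoter with Nle, a ribosome assembly factor, and had 295.3 with ranks of 380 and 880. CG9630 had 283.2 with ranks of 354 and 1427, and CG4364 had 275.9 with ranks of 417 and 927. RpLP0 stood higher in replicate 3, and the other 3 stood higher in replicate 2.

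Csk, the kinase that restrains Src, carried a pair of members. The promoter peak had a score of 269.3 and ranks of 588 in replicate 2 and 636 in replicate 3. A second peak in an intron, 1068 bp downstream of the start, had 364.6 and ranks of 308 and 366. Adsl, an enzyme of purine synthesis, had 265.2 with ranks of 961 and 440 and the motif 11.5 bp upstream of its start. LTV1, whose yeast homologue works in small ribosomal subunit assembly, had 240.4 with ranks of 748 and 1246. CG4866, which shares its promoter with the anaphase-promoting complex gene APC10, had 227.9 with ranks of 664 and 1958.

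Only 7 members lay outside promoters. The highest of all members was 4304 bp upstream of slp2, a forkhead factor of embryonic segmentation, with a score of 388.8, ranks of 433 in replicate 2 and 156 in replicate 3, and 2 matches of the motif. After it came the Csk intron peak and a peak in an intron of Hgsnat, a lysosomal acetyltransferase, 867 bp downstream of a start, with 155.9 and ranks of 3587 and 1123. The other 4, named after their values were seen, were nearest to starts of CG32170 (150.1), hng3 (111.8), the homeodomain gene hth (95.69) and CG31680 (92.46), at distances of 1469 to 49834 bp. Of the 7, 6 were in the top N of both replicates, all except that near CG31680.

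Further members with 2 matches were at CG9003 (score 163.8), cib, which encodes an actin-binding protein (137.7), CG10492 (112.3) and DCP1, a factor of mRNA decapping (106.9). Their scores stood at percentiles 63.3, 50.9, 31.3 and 25.1 of the list, and that of slp2, the fifth with 2 matches, at 94.6. The members whose percentiles differed most between replicates were GC1, a mitochondrial glutamate carrier, agt, a repair enzyme of alkylated guanine, and indra. Their nearest summits ranked 4329, 3269 and 5073 in replicate 2 and 27431, 15505 and 19737 in replicate 3. By the nearest summit all 3 were higher in replicate 2, and they scored below 95 in the reproducible list. The intervals of GC1 and indra still overlapped a top N peak of both replicates, while that of agt did not. For GC1 and indra the gap thus depends on which replicate peak is matched.

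Promoters were then compared by the motifs they hold. Promoters with Ohler 1 alone had a reproducible peak as often as those with another of the motifs alone, 39.9% against 37.3% of 370 with the E-box and 39.9% of 852 with the DRE. Those with none of the 3 motifs had 14.3% of 12628. A summit anywhere in the pooled list of 30000 was present at 88.8% of Ohler 1 promoters (86.4 to 90.8), 58.9% of E-box promoters (53.8 to 63.8) and 87.1% of DRE promoters, against 50.4% of all. In the 4712 highest peaks of a single replicate the share of Ohler 1 promoters was 38.9% in replicate 2 and 39.1% in replicate 3. Promoters with Ohler 1 and the E-box, whose peaks the rule leaves out where both are near the summit, had 85.4% of 48 (72.8 to 92.8). Those with Ohler 1 and the DRE had 49.1% of 108 (39.8 to 58.4), and those with the E-box and the DRE 84.5% of 58.

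**Figure D5:**
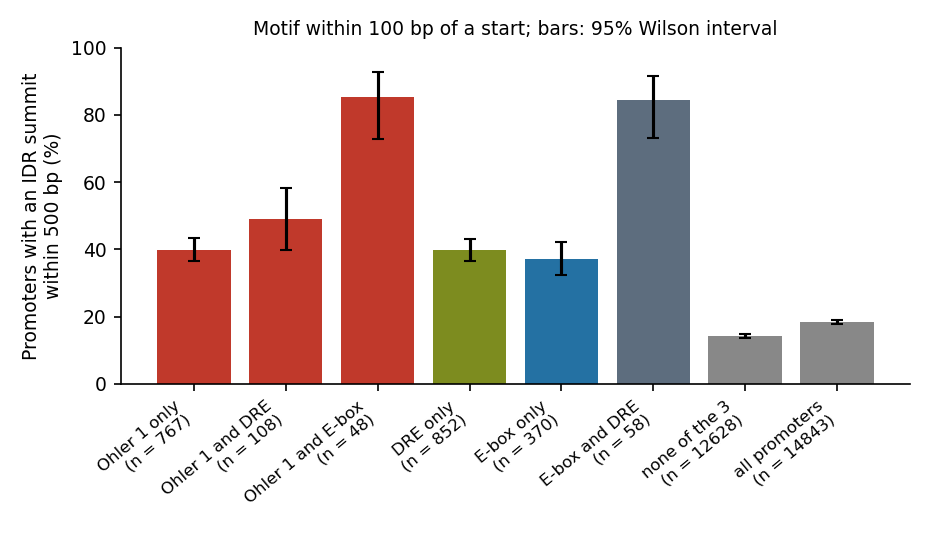
Percentage of merged protein-coding promoters with a reproducible summit within 500 bp, by the motifs within 100 bp of a start, with 95% Wilson intervals that cover counting error only. Ohler 1 alone stands at 39.9%, level with the DRE alone and the E-box alone, and Ohler 1 with the E-box at 85.4%, beside 84.5% for the E-box with the DRE.

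Peaks of the same sequence class were most frequent just below the top of the pooled list. Among promoter peaks ranked 1 to 3000, 4.30% met the rule (3.48 to 5.31), and among those ranked 3001 to 6000, 7.24% (6.07 to 8.61). The share was 5.07% at ranks 6001 to 9000 and 0.921% at ranks 27001 to 30000. Outside promoters it stayed between 0.0405% and 0.459% at all ranks. The reproducible list ends at rank 4712, and the shares of Ohler 1 promoters above, 39.9% in it and 88.8% in the whole pooled list, differ by the peaks below that rank.

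Other motifs near Ohler 1 summits were searched on both strands within 100 bp. At promoter members, CAGCTG was present in 16.4% (11.3 to 23.3), against 12.6% of all promoter peaks, and GGTATTTT (Ohler 6) in 6.85%, against 4.31%. CATCNCTA (Ohler 7) was present in 6.16%, against 7.18%, and TATAAA in 32.2%, against 35.8%. CATGTG was present in 10.3%, against 8.62%, and CACGCG in 6.16%, against 5.53%. TCAGTT was present in 8.90%, against 11.5%, and GAGAGAG in 2.05%, against 3.26%. CAGGTAG was found at 2 and CGGACGT at 1 of the 146. For all 10 the intervals of members held the share over all promoter peaks. Within 100 bp of a start, 15.1% of all promoters held CAGCTG, 4.11% GGTATTTT, 4.99% CATCNCTA, 31.3% TATAAA, 7.53% CATGTG, 7.68% CACGCG, 26.2% TCAGTT, 5.68% GAGAGAG, 1.35% CAGGTAG and 1.83% CGGACGT. GC content within 50 bp of the summit had a median of 40.6% in promoter members and 34.7% in all promoter peaks. It was 43.6% in E-box peaks and 37.6% in DRE peaks at promoters. The core itself is rich in G and C, but its part in these values was not tested.

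Genes under Ohler 1 peaks included ribosomal, translation and splicing genes in small numbers. A summit of a member lay within 500 bp of a start of 225 protein-coding genes (1.61% of 13945), and 25.9% had any reproducible summit there. The motif was within 100 bp of a start of 1054 genes, of which 493 (46.8%) had a reproducible summit and 162 (15.4%, 13.3 to 17.7) an Ohler 1 peak. A summit counts for every gene with a start in reach, so a gene can be listed through a neighbour's motif. The lists are not complete, so members outside a list can belong to the same class, and each count holds for the listed genes only.

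Cytoplasmic ribosomal protein genes had 4 of 93 with an Ohler 1 peak, against 78 with any reproducible peak. The highest-scoring were RpLP0 (297.3), RpLP1 (223.7) and RpL27A (201.5). The RpLP1 summit ranked 746 in replicate 2 and 1523 in replicate 3, and that of RpL27A 1336 and 914. RpLP0 and RpLP1 both encode stalk proteins, and the RpLP1 motif, like that of RpLP0, read towards the gene from upstream, 14.5 bp from the start. Of 73 mitochondrial ribosomal protein genes, 3 had one, against 39 with any peak. They were mRpL37 (173.8), mRpS16, which shares one with cg (141.1), and mRpL48 (115.3).

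Translation factors had 3 of 54, against 31 with any peak. They were eEF1alpha1, which brings aminoacyl-tRNA to the ribosome (218.3, ranks 1111 in replicate 2 and 882 in replicate 3), eIF5B, a GTPase of subunit joining (135.3, ranks 3165 and 1872), and eIF3k (114.6, ranks 4010 and 3980). Aminoacyl-tRNA synthetases had 1 of 33, TyrRS (119.2), with ranks of 2008 and 8642. Of 38 nucleolar ribosome biogenesis genes, 34 had a reproducible peak and 1 an Ohler 1 peak (2.63%, 0.466 to 13.5, against 1.61% of all genes).

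Splicing genes had the highest share among lists with more than 5 genes, 3 of 33 (9.09%, 3.14 to 23.6), against 16 with any peak. They were Sf3b1, SmD2, a subunit of the Sm ring, with 189.1 and ranks of 924 in replicate 2 and 2723 in replicate 3, and Prp3, which shares its promoter with the chromatin remodeller Mi-2, with 94.09 and ranks of 5381 and 3293. Cell cycle and replication genes had 3 of 60, against 28 with any peak. These were Cdc45, a part of the replicative helicase (145.6), Cdc5, which the name pattern took in and which works in splicing (117.7), and RfC38, a clamp loader subunit (88.51). The list of ubiquitin ligase and conjugation genes had 2 of 44. They were Uba3, a NEDD8-activating subunit beside the cytokinesis gene tum (209.2), and Usp5, a ubiquitin protease (125.2). That list left out members at the ubiquitin ligase genes Nedd4 (135.3), Ube4B (120.8) and Cbl (93.99), named after their values were seen. Of 63 TFIID, Mediator and RNA polymerase II genes, 16 held the motif and 33 had a peak, and 1 had an Ohler 1 peak (1.59%, against 1.61% of all genes). It was Taf1, the largest TFIID subunit (90.46, ranks 4421 and 6480).

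Several lists held the motif at starts and had peaks without an Ohler 1 peak at any listed gene. Oxidative phosphorylation genes had the motif at 17 of 84 and a reproducible peak at 25, vesicle transport genes at 15 and 51 of 105, proteasome genes at 6 and 16 of 48, microtubule and actin genes at 8 and 13 of 42, and promoter and insulator factor genes at 3 and 16 of 25. A list of this size can hold few at a background of 1.61%. The upper limits of the 95% intervals were 4.37%, 3.53%, 7.41%, 8.38% and 13.3% in that order. Related genes outside these lists did have Ohler 1 peaks. Examples are Cyt-c-p, which encodes cytochrome c (108.9) and was named after its value was seen, and the actin-binding gene cib (137.7). Lists of genes used in few cells lacked the motif altogether: none of 118 cuticle, 230 chemosensory or 30 Hox and segmentation genes had it within 100 bp of a start, against 7.56% of all genes. None of these had an Ohler 1 peak either, and 1, 1 and 3 had any reproducible peak. For counts of 0 in lists of these sizes the upper 95% limits were 3.15%, 1.64% and 11.4%. That of the Hox and segmentation list lies above 7.56%, so its lack of the motif is within counting error of the share over all genes. In the Myc-Max network the peak at Max was the single member.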

How the data were processed

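Peak lists of Max-GFP ChIP-seq from whole embryos, 2 replicates, were read on dm6. The aligner is not given in the sources used here, nor is the caller. Per the text listing deposited with each sample, peaks were called against a control alignment, and the reproducible list was made from both replicate lists and the pooled list. The score of each peak is the authors' own, on a scale of its own per list, and was used to rank within a list. The summit offset deposited by the authors was added to the interval's start. Of the 4712 rows, 15 repeat an interval and each was kept as a summit.

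Sequence was read from the Release 6 genome, whose arm names and lengths fit dm6, and starts from Ensembl release 115. Python 3.11.15, numpy 2.4.6, pandas 2.3.3 and scipy 1.17.1 were used, and the motif search and intervals were tested on simulated data. Shares carry 95% Wilson intervals, which cover counting error over sites, not the spread between embryos. With 1 group, no test was run. Nothing in the lists gives a sequencing batch.

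Members, lists and motifs were chosen with earlier results of these data known. Named peaks were the 10 highest-scoring at promoters, the 3 highest outside, up to 3 per gene list, the 3 whose replicate percentiles differ most and up to 5 with 2 matches. Of the 18 lists' entries, 9 matched no gene. Windows, overlap, N, the score cut and single replicate lists were varied. Lists on dm3 were not used here. A few named peaks are not reported here.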

Additional observations from a re-analysis of the deposited data

How the results depend on the processing

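Of 40 alternative values of 6 results, 33 lay within the 95% interval of the reported value or, for the number of peaks, within 1.5 times it. The number of Ohler 1 peaks was 82 with a window of 50 bp, 283 with 200 bp and 61 in the higher-scoring 50% of the list, by construction of those settings. The share in the top N of both replicates was 98.4% in that higher-scoring part, 96.1% with N = 10000 (97.1% of all reproducible peaks) and 59.5% with replicate summits matched within 100 bp, an alternative chosen after seeing the data. The share of Ohler 1 promoters with a peak was 44.7% with a promoter window of 1000 bp, against 22.6% of all promoters. From 1 replicate alone the number was 149 to 170, the share at promoters 94.1% to 96.0%, the share of motifs reading towards the gene 72.8% to 77.4% and the share of Ohler 1 promoters with a peak 38.9% to 39.1%. No paired analysis was possible because the replicates form 1 group and no result comes from a test. Depth is unknown, so a promoter with no reproducible peak is not shown to be unbound.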
